A study of Rattus norvegicus with 6 samples.

Results

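Genes for histone-modifying enzymes and chromobox proteins were followed in primary rat cells from the superficial layer of joint cartilage, the layer that makes lubricin. The cells were either exposed to fluid shear stress at 20 dyne/cm² (shear, 3 libraries) or kept at 0 dyne/cm² (static, 3 libraries). The genes were matched by symbol, from the families KDM, KMT, SETD, EZH, PRMT, KAT, HDAC, SIRT and CBX, and 79 of the 32161 genes in the count table matched. The families were chosen with earlier results of these data known. Of these, 75 had enough counts to be tested, among 13945 tested genes in all. Prmt8, Sirt4, Kdm4d and Kdm4e did not. No label ties a group's 3 libraries to different cultures or animals, and the p-values therefore cover only the spread among these libraries, which may be technical. Enzymes whose genes carry other symbols, such as Suv39h1, Nsd1, Crebbp and Ep300, were placed in partner lists and are described after the members.

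Each library held 33342775 to 33979479 counts, without a library that stood apart in total. Of 10 markers of cartilage and its superficial zone 9 were tested. Of these Prg4, Abi3bp, Thbs4 and Sox9 were higher (44.4%) and Acan was lower (11.1%) under shear. Among all tested genes 10.8% were called higher and 7.71% lower. The median log2 fold change over the 9 markers was 0.0078. Prg4, which encodes lubricin, averaged 22.4 ± 0.89 CPM (counts scaled to the library total) in shear and 18.8 ± 1.4 CPM in static libraries (SD, n = 3 each). With library totals alone the Prg4 call was lost (edgeR adjusted p = 0.062), as it was on leaving out shear replicate 3 (0.071) or static replicate 1 (0.055) or 3 (0.096). Col2a1, the main collagen of deeper cartilage, had too few counts to be tested. Summed skeletal muscle markers were at 33.3 to 36.9 CPM in shear and 38.4 to 41.7 CPM in static libraries, with 3 of 5 tested lower, and summed endothelial markers were at 5.24 to 9.22 and 9.85 to 11.8 CPM, with 1 of 3 tested lower and Emcn at 0. Summed macrophage and leukocyte markers were at 2.16 to 2.59 CPM in shear and 3.45 to 4.43 CPM in static libraries, with 0 of 2 tested called, and summed tenocyte and fibroblast markers at 11881 to 12913 and 11153 to 11777 CPM, with 1 of 6 lower. That gene was Pdgfra, a call that needed shear replicates 2 and 3 (edgeR adjusted p = 0.082 and 0.051 without them in turn) and static replicates 1 and 3 (0.11 and 0.068). These are bulk samples, so fewer cells of a type and less RNA per cell cannot be told apart.

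DNA in the nucleus is wound around histone proteins, whose tails carry small chemical marks. Writers such as the KMT, SETD, EZH and PRMT methyltransferases and the KAT acetyltransferases add the marks. Erasers such as the KDM demethylases and the HDAC and sirtuin deacetylases remove them, and readers such as the CBX proteins bind them. Trimethylation of lysine 27 of histone H3 is written by Polycomb repressive complex 2 (PRC2, with EZH1 or EZH2), bound by CBX subunits, such as CBX2 and CBX8, of Polycomb repressive complex 1 (PRC1), and erased by KDM6 enzymes. Methylation of lysine 9 of histone H3 is bound by the heterochromatin proteins CBX1, CBX3 and CBX5.

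Under shear 10 members rose and 9 fell (edgeR adjusted p under 0.05 over all tested genes), which is 25.3% of the members tested. Among all tested genes the share called was 18.5%, with 10.8% higher and 7.71% lower. The members that rose were Kdm6b, Kdm3a, Kdm5b, Kdm7a, Kdm1a, Kdm2a, Kmt5b, Kmt2e, Kmt2d and Setd1b, all from the KDM, KMT and SETD families. Among those that fell were Hdac9, Cbx2, Cbx8, Cbx3, Prmt7, Sirt1, Kat7 and Setd5. The other 56 tested members were not called. The median log2 ratio of shear over static, the fold change on the log2 scale, was -0.04 over the members and -0.01 over all tested genes, and the members ranged from -1.09 to 1.03. The groups did not overlap in 32 of 75 members, or 42.7%, against 32.7% of all tested genes. The split into higher and lower calls depended on the scaling. With upper-quartile factors it was 8 higher and 11 lower, and with library totals alone 7 higher and 15 lower, where all genes split into 1124 higher and 1730 lower.

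**Figure D1:**
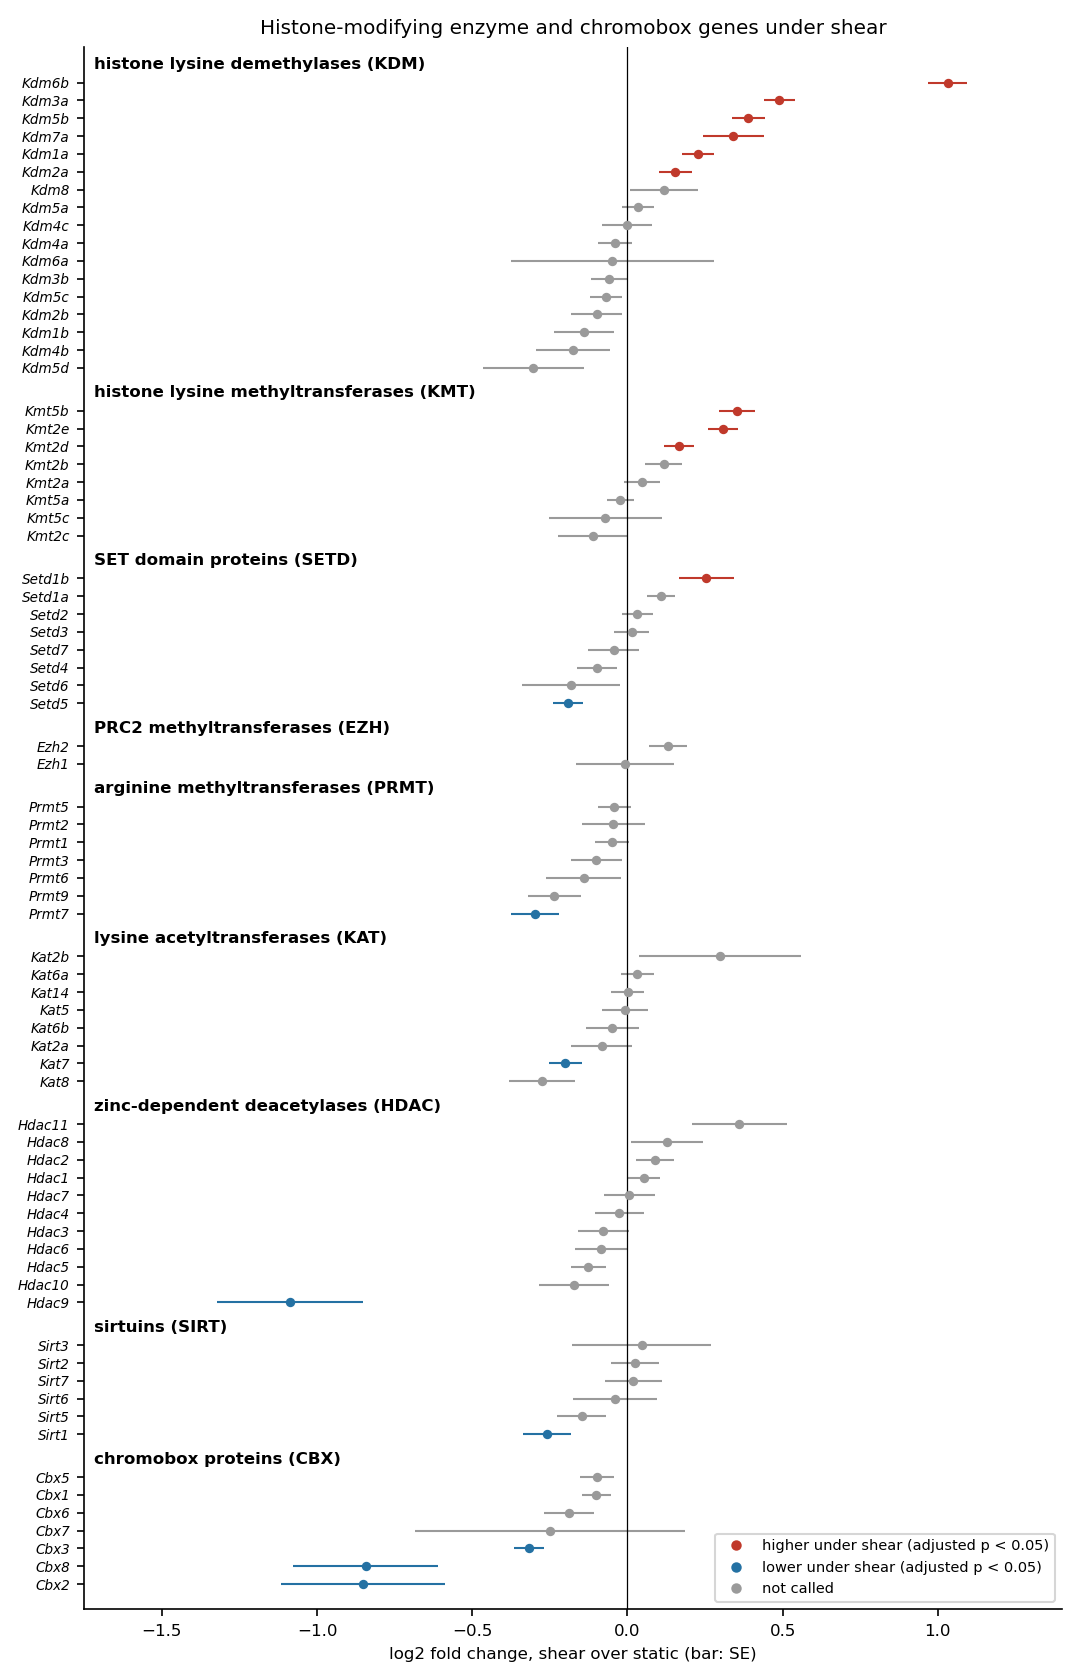
Log2 fold change (shear over static) of 74 of the 75 tested members with its SE, grouped by class and coloured by call. Members that rose lie among the KDM, KMT and SETD genes, and the 7 CBX genes shown lie left of 0 (Cbx7 was at 0.19 without shear replicate 3).

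The start regions of 4 changed members are shown because they are the 3 demethylase genes with the largest rises and a Polycomb reader that fell. The sequences are RefSeq's, from the rat assembly GRCr8, and run 5′ to 3′ on the gene's strand from 250 bases before to 50 after the listed start. Capitals mark matches, on either strand, to the motifs searched: GGGCGG (GC box), CCAAT (the CCAAT box), ACGTG (the core of the hypoxia response element), TGACGTCA (cAMP response element), TGANTCA (AP-1), GCGTGGGCG (EGR) and GGAATG (TEAD).
Kdm6b, chr10:54640965-54641264, minus strand: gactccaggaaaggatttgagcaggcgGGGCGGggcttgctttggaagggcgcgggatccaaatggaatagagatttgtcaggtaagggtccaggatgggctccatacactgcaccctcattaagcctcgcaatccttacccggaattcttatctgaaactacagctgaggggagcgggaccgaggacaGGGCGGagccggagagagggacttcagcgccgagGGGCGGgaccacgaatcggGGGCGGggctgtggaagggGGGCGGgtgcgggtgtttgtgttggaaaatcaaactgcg
Kdm3a, chr4:105233321-105233620, minus strand, the first of 2 listed starts: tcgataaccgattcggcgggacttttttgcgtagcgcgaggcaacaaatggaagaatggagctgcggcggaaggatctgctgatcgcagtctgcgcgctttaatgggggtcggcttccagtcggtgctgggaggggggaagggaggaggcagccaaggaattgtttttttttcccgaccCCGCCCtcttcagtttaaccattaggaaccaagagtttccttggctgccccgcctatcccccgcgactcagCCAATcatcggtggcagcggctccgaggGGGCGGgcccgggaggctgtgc
Kdm5b, chr13:48554147-48554446, plus strand: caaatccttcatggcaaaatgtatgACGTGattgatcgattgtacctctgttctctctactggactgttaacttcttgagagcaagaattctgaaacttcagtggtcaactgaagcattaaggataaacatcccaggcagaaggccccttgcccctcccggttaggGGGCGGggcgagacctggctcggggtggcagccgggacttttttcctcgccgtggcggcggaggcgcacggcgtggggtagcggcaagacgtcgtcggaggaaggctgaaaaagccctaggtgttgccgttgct
Cbx8, chr10:104795451-104795750, minus strand: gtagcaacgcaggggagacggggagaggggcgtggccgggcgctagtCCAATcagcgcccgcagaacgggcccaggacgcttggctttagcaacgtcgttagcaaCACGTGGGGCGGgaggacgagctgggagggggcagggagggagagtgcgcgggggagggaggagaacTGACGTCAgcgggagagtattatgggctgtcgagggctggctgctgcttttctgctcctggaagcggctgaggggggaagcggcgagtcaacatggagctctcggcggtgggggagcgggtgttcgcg
Kdm6b holds 5 GC boxes and no other match. Kdm3a holds 2 GC boxes and 1 CCAAT, and Kdm5b 1 GC box and 1 ACGTG. Cbx8 holds 1 CCAAT, 1 TGACGTCA, 1 GC box and 2 matches to ACGTG, 1 on each strand at the same letters, which run into the GC box.

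RefSeq start regions were matched for 64 of the 79 members. A GC box was found in 67.2% of these and in 34.9% of 27457 start regions of the same length, with 7 of the 8 matched members that rose and 4 of the 6 that fell among those that hold it. The member regions were also richer in G and C, with a median of 61.7% against 52.3% in all regions. CCAAT was found in 48.4% of the member regions and 37.7% of all regions, and ACGTG in 29.7% and 19.7%. TGACGTCA was found in 3.13% and 1.91%, GCGTGGGCG in 1.56% (Cbx3 alone) and 0.59%, TGANTCA in 1.56% and 7.33%, and GGAATG in 10.9% and 13.9%. These are matches of letters within a short window. They are given as a description, and the base composition differs between the regions compared.

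Lysine demethylases showed calls in 1 direction. Of 17 tested members 6 rose (35.3%, against 10.8% of all tested genes) and 0 fell. The median log2 ratio of the class was -0.0018, and 9 of 17 members were below 0 (8 with DESeq2's size factors and 10 with library totals alone). Kdm6b rose most. It encodes JMJD3, which removes methyl groups from lysine 27 of histone H3, and its row lies on chromosome 10, 56001799 to 56008885 by the table's own positions, whose build is not named in the sources used here. It was at 55.7, 49.3 and 51.4 CPM in shear libraries, against 26.4, 25.0 and 25.2 CPM in static libraries. All shear libraries lay far above all static ones. The means were 52.2 ± 3.3 and 25.5 ± 0.76 CPM (SD, n = 3 each), a log2 ratio of 1.03 ± 0.06 (SE, edgeR adjusted p = 6.2e-12).

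Kdm3a, whose product removes mono- and dimethylation from lysine 9 of histone H3, followed (chromosome 4, 99503176 to 99546905). Its levels were 105, 110.4 and 108 CPM in shear libraries and 74.9, 76.2 and 79.3 CPM in static libraries. The groups were well apart, and the log2 ratio was 0.49 ± 0.05 (SE, edgeR adjusted p = 5.1e-08). Its paralogue Kdm3b was not called, with a log2 ratio of -0.06 ± 0.06 (SE, edgeR adjusted p = 0.56; 95% interval -0.17 to 0.06). Kdm3a is known as a target of the hypoxia-inducible factor HIF. In a list of 13 HIF target genes 5 were higher under shear (38.5%, against 10.8% of all tested genes). Adm was lower (7.69% of the list, against 7.71%), and the median log2 ratio was 0.17. Vegfa, among those that rose, averaged 862 ± 33 CPM in shear and 425 ± 3.4 CPM in static libraries (SD, n = 3 each). The part of HIF activity in the Kdm3a value was not tested.

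Kdm5b encodes a demethylase of trimethylated lysine 4 of histone H3 (chromosome 13, 51384389 to 51455357). It was at 68.4, 73.9 and 70.8 CPM in shear libraries, against 55.9, 52.3 and 54.4 CPM in static libraries. No shear library came near a static one, and the log2 ratio was 0.39 ± 0.05 (SE, edgeR adjusted p = 6.4e-06). The other KDM5 genes, Kdm5a, Kdm5c and the Y-linked Kdm5d, were not called, with log2 ratios of 0.03 (-0.02 with library totals alone), -0.07 and -0.30. Within the summed level per length of the 4 KDM5 genes, Kdm5b made up 31.6% ± 0.42 in shear and 25.7% ± 0.15 in static libraries (SD, n = 3 each).

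Kdm7a, which acts on lysine 9 and lysine 27 of histone H3, was at 10.5, 10.8 and 9.79 CPM in shear libraries and 8.27, 7.62 and 8.61 CPM in static libraries. The shear libraries were all higher, by a log2 ratio of 0.34 ± 0.10 (SE, edgeR adjusted p = 0.016). Kdm1a, or LSD1, a demethylase of lysine 4 of histone H3 that works with the corepressor CoREST, averaged 77.0 ± 0.28 CPM in shear and 65.8 ± 3.3 CPM in static libraries (SD, n = 3 each), a log2 ratio of 0.23 ± 0.05. Rcor1, which encodes CoREST, also rose, by 0.22 ± 0.05 on the log2 scale (SE). Kdm2a, which binds unmethylated CpG-rich DNA and demethylates lysine 36 of histone H3, averaged 108 ± 3.4 CPM in shear and 97.0 ± 6.0 CPM in static libraries (SD, n = 3 each), a log2 ratio of 0.15 ± 0.05 (SE, edgeR adjusted p = 0.040). The Kdm7a call was lost without static replicate 2 (edgeR adjusted p = 0.075) and without shear replicate 2 (0.061). The Kdm2a call was lost without static replicate 1 (0.16), static replicate 2 (0.16), shear replicate 2 (0.14) or shear replicate 3 (0.11), as well as with library totals alone (0.17) and upper-quartile factors (0.097).

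The row listed as Kdm6a lies on chromosome Y, 989240 to 1206096, with 18 to 36 counts per library. RefSeq places Kdm6a on chromosome X and gives Kdm6a as an older name of the Y-linked gene Uty. The row was therefore not read as X-linked Kdm6a and was not set against Kdm6b. Its log2 ratio was -0.05 ± 0.33 (SE, edgeR adjusted p = 0.95).

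**Figure D2:**
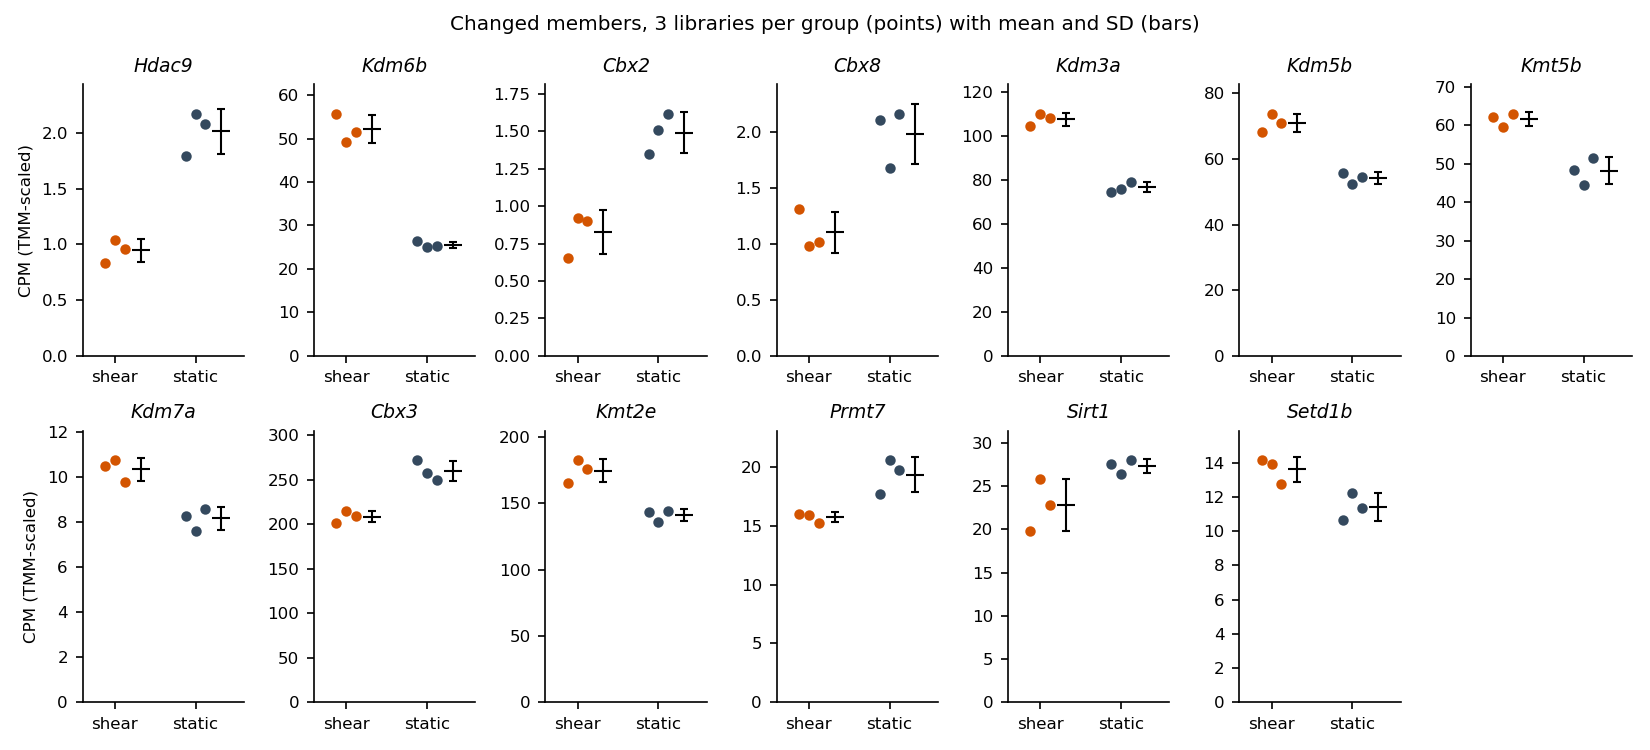
CPM in each library (points, shear left of static, 3 per group) with the mean and SD beside them, for 13 of the 14 changed members with the largest log2 ratios in size. Every panel starts at 0. In each the 3 shear libraries lie wholly above or wholly below the 3 static libraries, which the choice of called members favours. The groups did not overlap in 42.7% of the tested members and in 32.7% of all tested genes.

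In the KMT family 3 of 8 members rose and 0 fell, with a median log2 ratio of 0.08. The share that rose was 37.5%, against 10.8% of all tested genes. Of 8 SETD members 1 rose and 1 fell, or 12.5% each way, against 10.8% and 7.71% of all tested genes. Kmt5b encodes SUV420H1, which adds further methyl groups to lysine 20 of histone H4. It was at 62.2, 59.5 and 63.1 CPM in shear libraries, against 48.5, 44.6 and 51.5 CPM in static libraries. The groups were apart, with a log2 ratio of 0.35 ± 0.06 (SE, edgeR adjusted p = 7.3e-05). Kmt5a, which places the initial methyl group there, was not called (log2 ratio -0.02 ± 0.04, SE, edgeR adjusted p = 0.78). Kmt2e, or MLL5, a SET and PHD finger protein, was at 165, 183 and 176 CPM in shear libraries and 144, 136 and 144 CPM in static libraries. All shear values exceeded the static ones, by a log2 ratio of 0.31 ± 0.05 (SE, edgeR adjusted p = 5.0e-05).

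Kmt2d, or MLL4, which monomethylates lysine 4 of histone H3 at enhancers, averaged 146 ± 4.6 CPM in shear and 130.4 ± 4.1 CPM in static libraries (SD, n = 3 each), a log2 ratio of 0.17 ± 0.05 (SE, edgeR adjusted p = 0.015). Setd1b, the catalytic subunit of a COMPASS complex that trimethylates the same residue, was at 14.1, 13.9 and 12.8 CPM in shear libraries and 10.6, 12.2 and 11.4 CPM in static libraries. The lowest shear library stood only slightly above the highest static one. Its log2 ratio was 0.25 ± 0.09 (SE, edgeR adjusted p = 0.047). Its partner enzyme Setd1a was at 404 CPM in shear and 374 CPM in static libraries on average and was not called (log2 ratio 0.11 ± 0.04, SE, edgeR adjusted p = 0.092). Setd5, a SET-domain protein known in mouse cells to bind HDAC3 and PAF1 complexes, fell to 348 ± 17 CPM in shear, against 398 ± 17 CPM in static libraries (SD, n = 3 each), a log2 ratio of -0.19 ± 0.05 (SE, edgeR adjusted p = 0.0059).

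The Kmt2d call was lost without static replicate 1 (edgeR adjusted p = 0.078) and with library totals alone (0.098). The Setd1b call was lost without static replicate 1 (0.19), static replicate 3 (0.099), shear replicate 1 (0.12) or shear replicate 2 (0.12), with upper-quartile factors (0.078) and library totals (0.12), and with DESeq2 (0.067) and limma-voom (0.051).

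The PRC2 writers were not called. Ezh2 was at 79.0, 83.8 and 80.0 CPM in shear libraries and 80.9, 65.9 and 74.9 CPM in static libraries. The groups overlapped, and the log2 ratio was 0.13 ± 0.06 (SE, edgeR adjusted p = 0.15; 95% interval 0.01 to 0.25). Without static replicate 1, the highest of the static libraries, it was 0.20 with an edgeR adjusted p of 0.029. Ezh1 was low, at 3.54 ± 0.60 CPM in shear and 3.56 ± 0.20 CPM in static libraries (SD, n = 3 each), with a log2 ratio of -0.01 ± 0.16 (SE, edgeR adjusted p = 0.99).

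All 7 tested arginine methyltransferase genes had a log2 ratio below 0, also with the 3 other scalings (6 of 7 without static replicate 2). Of them 1 was called lower, or 14.3%, against 7.71% of all tested genes. Prmt7, which monomethylates arginine, was at 16.02, 15.9 and 15.2 CPM in shear libraries, against 17.7, 20.6 and 19.7 CPM in static libraries. It was lower in every shear library, with a log2 ratio of -0.30 ± 0.08 (SE, edgeR adjusted p = 0.0080), and without static replicate 2 the adjusted p was 0.059. Prmt9 had a log2 ratio of -0.24 ± 0.09 (SE, edgeR adjusted p = 0.057). Prmt1, the main asymmetric arginine methyltransferase, and Prmt5, the main symmetric one, had log2 ratios of -0.05 and -0.04.

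Of the 8 lysine acetyltransferase genes only Kat7 was called, or 12.5%, against 18.5% of all tested genes. Kat7, or HBO1, acetylates histones H3 and H4 and binds at replication origins. It averaged 52.9 ± 1.9 CPM in shear and 60.8 ± 0.98 CPM in static libraries (SD, n = 3 each), a log2 ratio of -0.20 ± 0.05 (SE, edgeR adjusted p = 0.0088; 0.068 without shear replicate 3). Kat8, the acetyltransferase of lysine 16 of histone H4, had a log2 ratio of -0.28 ± 0.11 (SE, edgeR adjusted p = 0.074), and 12.6% of its exon length overlaps Prss8 on the opposite strand. Kat5, Kat6a and Kat14 were within 0.04 of 0 on the log2 scale, with edgeR adjusted p from 0.76 to 0.99. Crebbp and Ep300, the general coactivator acetyltransferases, had log2 ratios of -0.09 ± 0.05 (SE, edgeR adjusted p = 0.24) and 0.19 ± 0.10 (SE, edgeR adjusted p = 0.20), although Ep300 was called without static replicate 3 (0.30, edgeR adjusted p = 0.038).

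Of the deacetylases, 1 of 11 HDAC genes (9.09%) and 1 of 6 tested sirtuin genes (16.7%) fell and 0 rose. The share lower among all tested genes was 7.71%. Hdac9 had the largest change in size of all members. It encodes a class IIa deacetylase, a corepressor of MEF2 factors in muscle, and lies on chromosome 6, 53488883 to 54059119. It was at 0.834, 1.04 and 0.961 CPM in shear libraries (28 to 34 counts), against 1.79, 2.17 and 2.08 CPM in static libraries (61 to 75 counts). The level was low, but the groups were well apart, with a log2 ratio of -1.09 ± 0.24 (SE, edgeR adjusted p = 0.0015). Of 5 tested muscle markers Acta1, Mylpf and Tnnt3 fell too, by 1.26, 1.69 and 0.68 on the log2 scale, and the other 2 were not called. The part of muscle-like cells in the Hdac9 value was not tested.

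The more abundant class IIa genes were not called. Hdac4 had a log2 ratio of -0.03 ± 0.08 (SE, edgeR adjusted p = 0.87; 95% interval -0.18 to 0.13). Hdac5 had one of -0.13 ± 0.06 (SE, edgeR adjusted p = 0.14), which was -0.18 and called with library totals alone (adjusted p = 0.030). Hdac9 made up 0.52% ± 0.08 of the summed class IIa level per length in shear and 1.03% ± 0.11 in static libraries (SD, n = 3 each). The sum was 25.8 ± 1.3 CPM per kb in shear and 27.4 ± 0.87 CPM per kb in static libraries. The class I genes Hdac1, Hdac2, Hdac3 and Hdac8 were not called, with log2 ratios from -0.08 to 0.13.

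Sirt1, an NAD-dependent deacetylase of histones and many transcription factors, was at 19.8, 25.8 and 22.9 CPM in shear libraries and 27.6, 26.4 and 28.0 CPM in static libraries. All shear values were lower, although shear replicate 2 came close to the static libraries. The log2 ratio was -0.26 ± 0.08 (SE, edgeR adjusted p = 0.021). The call was lost without static replicate 1 (0.061), static replicate 3 (0.068), shear replicate 1 (0.15) or shear replicate 3 (0.066). Sirt6, a chromatin-bound sirtuin, had a log2 ratio of -0.04 ± 0.13 (SE, edgeR adjusted p = 0.89; 95% interval -0.30 to 0.22).

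The chromobox genes were the class with the lowest median log2 ratio, -0.28, and all 8 were below 0, also with the 3 other scalings, although Cbx7 was at 0.19 without shear replicate 3. Of them 4 fell, Cbx2, Cbx8 and Cbx3 among them, and 0 rose. The share that fell was 50%, against 7.71% of all tested genes. In 6 of the 8, or 75%, the groups did not overlap, against 32.7% of all tested genes. With library totals alone 7 were called lower, and without static replicate 3, 2 were.

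The PRC1 readers Cbx2 and Cbx8 were low. Cbx2 was at 0.655, 0.919 and 0.901 CPM in shear libraries (22 to 30 counts), against 1.35, 1.51 and 1.62 CPM in static libraries (46 to 56 counts). Cbx8 was at 1.31, 0.981 and 1.02 CPM in shear libraries (32 to 44 counts), against 2.11, 1.68 and 2.17 CPM in static libraries (58 to 75 counts). In both genes every shear library was below every static one. The log2 ratios were -0.85 ± 0.27 (SE, edgeR adjusted p = 0.025) for Cbx2 and -0.84 ± 0.23 (SE, edgeR adjusted p = 0.012) for Cbx8. The Cbx2 call was lost without static replicate 2 (0.067), static replicate 3 (0.087) or shear replicate 1 (0.11), and the Cbx8 call without static replicate 3 (0.053) or shear replicate 2 (0.052).

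The PRC1 readers Cbx6 and Cbx7 were not called, with log2 ratios of -0.19 ± 0.08 (SE, edgeR adjusted p = 0.11) and -0.25 ± 0.43 (SE, edgeR adjusted p = 0.76).

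Cbx2 (108132105 to 108140935) and Cbx8 (108148073 to 108150511) lie 7137 bases apart on chromosome 10 by the table's positions.

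Among the heterochromatin readers, Cbx3 (HP1 gamma) fell and Cbx1 (HP1 beta) and Cbx5 (HP1 alpha) were not called. Cbx3, on chromosome 4 from 81244469 to 81257897, was at 202, 215 and 209 CPM in shear libraries, against 272, 258 and 249.9 CPM in static libraries. The groups were well apart, with a log2 ratio of -0.32 ± 0.05 (SE, edgeR adjusted p = 2.0e-05). Cbx1 and Cbx5 had log2 ratios of -0.10 each (edgeR adjusted p = 0.15 and 0.25), and Cbx1 was called with library totals alone (-0.15, adjusted p = 0.027). The summed level per length of these 3 genes was 373 ± 9.1 CPM per kb in shear and 420.4 ± 12 CPM per kb in static libraries, of which Cbx3 made up 32.1% ± 0.63 and 35.4% ± 0.81 (SD, n = 3 each). Beside the chromobox genes, a list of 17 DNA replication and proliferation genes had 11 members lower (64.7%, against 7.71% of all tested genes) and 0 higher. Its summed levels were 2424 to 2506 CPM in shear and 2760 to 2815 CPM in static libraries. Proliferation itself was not measured in these libraries, and its part in the chromobox values was not tested.

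Set out by histone residue, the calls for lysine 27 of histone H3 were 2 of 2 erasers higher (Kdm6b and Kdm7a), 0 of 2 writers called, and 3 of 5 readers lower. The row listed as Kdm6a was not counted as an eraser. The Kdm6b call held in every fit, whereas those of Kdm7a, Cbx2 and Cbx8 were each lost in some fits with 1 library left out. For lysine 4 of histone H3, 2 of 6 erasers (Kdm1a and Kdm5b) and 2 of 7 writers (Setd1b and Kmt2d) rose. For lysine 9, 2 of 6 tested erasers (Kdm3a and Kdm7a) rose and 1 of 3 readers (Cbx3) fell. For lysine 36, 1 of 5 erasers (Kdm2a) rose and the writer Setd2 was not called. For lysine 20 of histone H4, 1 of 3 writers (Kmt5b) rose, and for lysine 16 the writer Kat8 was not called while 1 of 2 erasers (Sirt1) fell. Kdm7a and the KDM4 genes are counted under each of their residues. Among all tested genes 10.8% were called higher and 7.71% lower. The sets held 1 to 7 tested genes each, and none was tested against those shares. Only members matched by symbol are counted here. The genes listed as methyltransferases under other symbols, of which 5 rose and 5 fell, are left out. Among these are Nsd1 for lysine 36, which fell, and Prdm2 for lysine 9, which rose. These are transcript levels, and the marks themselves were not measured.

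Levels between genes were compared per kilobase of exon (CPM per kb, mean of the 6 libraries). The most abundant tested members of their classes were Kmt5a (611 CPM per kb), Cbx1 (192), Hdac1 (96.1), Prmt1 (75.6), Setd3 (72.2), Kat6a (30.2), Ezh2 (27.7), Kdm1a (23.3) and Sirt1 (9.68). None of these but Kdm1a and Sirt1 was called. The lowest tested members were Kmt5c (0.95), Cbx7 (0.18), Hdac9 (0.21), Prmt6 (3.71), Setd1b (2.10), Kat2b (0.50), Ezh1 (0.84), the row listed as Kdm6a (0.12) and Sirt3 (1.26). Members that rose had levels of 2.10 to 23.3 CPM per kb with a median of 9.77, members that fell 0.21 to 134 with a median of 9.68, and the rest 0.12 to 611 with a median of 5.59. The counting of reads that match several loci is not named in the sources used here, which leaves the high Kmt5a level uncertain, and the Kmt2c row covers only 1029 exon bases.

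**Figure D3:**
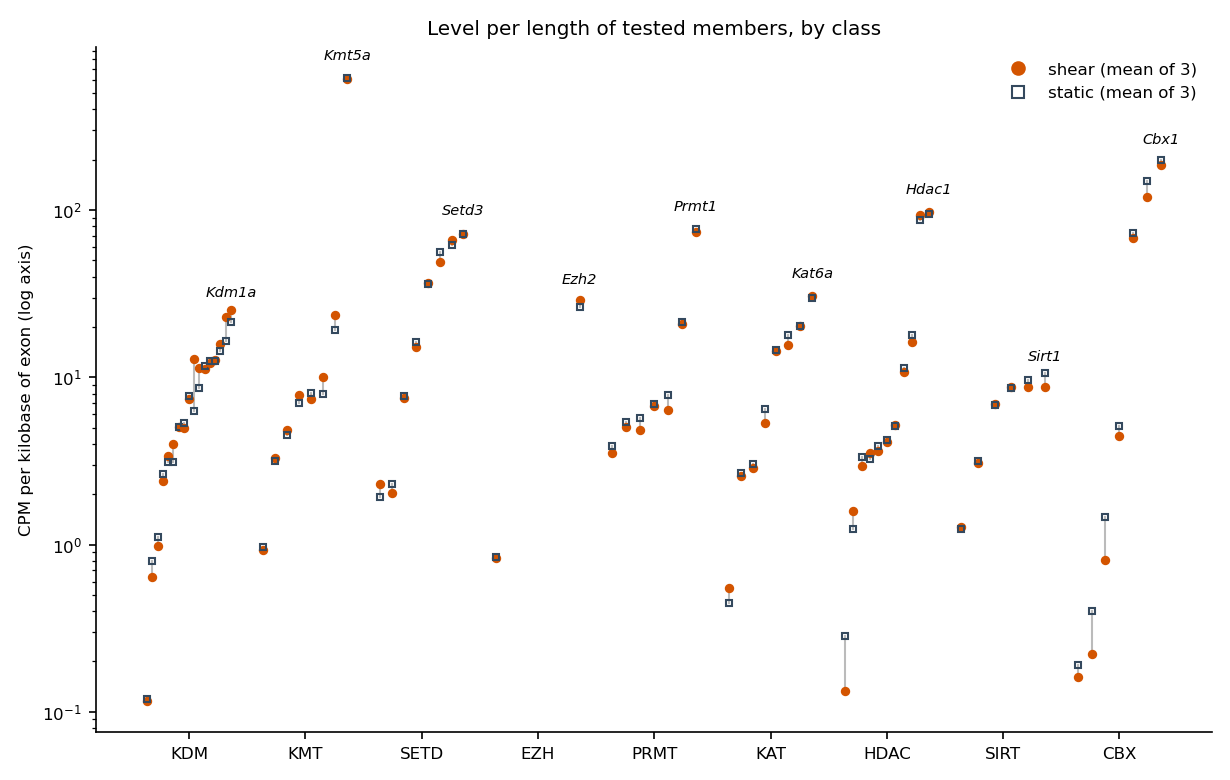
Level per length (CPM per kilobase of exon, log axis) of 74 of the 75 tested members by class, as the mean of 3 shear and of 3 static libraries. Within a class the levels span from 0.12 to 23.3 among the KDM genes and from 0.18 to 192 among the CBX genes, a far wider range than the differences between groups.

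Partners of these enzymes were taken from 12 lists of 172 genes. The lists were written with earlier results of these data known, so their shares of calls are given as a description. Of 168 tested, 31 were higher and 20 lower, or 30.4%, against 18.5% of all tested genes. With upper-quartile factors the counts were 23 higher and 24 lower, with library totals alone 22 and 32, and without static replicate 1 or without shear replicate 3 they were 24 and 13.

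The Polycomb partners held the largest rises. Of 9 tested PRC2 partners 3 rose and 1 fell, or 33.3% and 11.1%, against 10.8% and 7.71% of all tested genes. Jarid2, which recruits PRC2 to its targets, was at 54.3, 53.9 and 54.0 CPM in shear libraries, against 25.7, 26.9 and 27.6 CPM in static libraries. The groups were far apart, with a log2 ratio of 1.02 ± 0.06 (SE, edgeR adjusted p = 2.4e-12). The accessory subunits Aebp2 and Mtf2 rose by 0.26 and 0.24 on the log2 scale, Rbbp7 fell by 0.14, and the core subunits Eed and Suz12 had log2 ratios within 0.08 of 0 that were not called. Without shear replicate 2 Jarid2 alone was called higher, since Aebp2 (edgeR adjusted p = 0.065) and Mtf2 (0.18) lost their calls. Mtf2 lost it too without static replicate 1 (0.072) or 3 (0.068), and Rbbp7 without static replicate 1 (0.16) or 2 (0.26) or shear replicate 2 (0.15) or 3 (0.20). Other settings that removed these calls were library totals alone (0.080) and upper-quartile factors (0.052) for Mtf2, and DESeq2 size factors (0.053) and halved counts (0.051) for Rbbp7.

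Of 16 PRC1 partners 5 rose (31.2%, against 10.8% of all tested genes) and 0 fell. With upper-quartile factors or library totals alone 3 were higher, and 3 or 4 were when a library was left out. Rybp, which replaces the CBX subunit in variant PRC1 complexes, was at 70.0, 75.5 and 74.0 CPM in shear libraries, against 43.4, 42.5 and 43.5 CPM in static libraries. All shear libraries were higher, by a log2 ratio of 0.76 ± 0.05 (SE, edgeR adjusted p = 1.0e-10). Its paralogue Yaf2 rose by 0.17, the ring finger genes Pcgf6 and Pcgf3 by 0.28 and 0.23, and Phc2 by 0.29 on the log2 scale. The Pcgf6 call was lost without any 1 of the 6 libraries (edgeR adjusted p from 0.058 without shear replicate 3 to 0.12 without shear replicate 2), with library totals alone (0.098), with upper-quartile factors (0.064) and with DESeq2's test (0.061). The Yaf2 call was lost without static replicate 2 (0.11) or shear replicate 3 (0.081), with library totals alone (0.12) and with upper-quartile factors (0.056). The CBX readers of PRC1 that changed fell, whereas the other PRC1 genes that changed rose.

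Partners of HP1 in heterochromatin were lower where they changed. Of 12 tested 5 fell (41.7%, against 7.71% of all tested genes) and 0 rose, and 3 to 5 fell when a library was left out. Hmga1, Chaf1a, Lmnb1 and Pogz had log2 ratios of -0.28, -0.24, -0.23 and -0.22, and Atrx one of -0.15. The Pogz call was lost without static replicate 1 (edgeR adjusted p = 0.051) or 2 (0.078) or shear replicate 3 (0.078), and the Atrx call without static replicate 1 (0.14) or 3 (0.056) or shear replicate 1 (0.16) or 3 (0.081). The DNA methylation genes Uhrf1, which reads hemimethylated DNA and lysine 9 methylation, and Dnmt1, the maintenance methyltransferase, fell by 0.39 and 0.24 on the log2 scale. They were the only 2 called of 12 (16.7%, against 18.5% of all tested genes). As with the chromobox genes, the replication list fell beside them, and its part in these values was not tested.

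Readers of acetylated histones and enzymes under other symbols moved in both directions. Of 12 tested BET and bromodomain genes 5 rose and 1 fell, or 41.7% and 8.33%, against 10.8% and 7.71% of all tested genes. Baz1a, a subunit of chromatin remodelling complexes, averaged 260.0 ± 13 CPM in shear and 164 ± 5.0 CPM in static libraries (SD, n = 3 each), a log2 ratio of 0.67 ± 0.05 (SE, edgeR adjusted p = 1.8e-10). Brd1 rose by 0.55 and Bptf by 0.25 on the log2 scale, and Baz1b fell by 0.27. Of 20 tested genes listed as methyltransferases under other symbols 5 rose and 5 fell, or 25% each way, against the same shares. By log2 ratio, Prdm2 (0.39), a lysine 9 methyltransferase, and Fbxo11 (0.26), an F-box gene kept as listed, were among those that rose. Mecom (-0.91) and Nsd1 (-0.36), a lysine 36 methyltransferase, were among those that fell. Mecom averaged 1.25 ± 0.14 CPM in shear and 2.34 ± 0.29 CPM in static libraries (SD, n = 3 each).

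Of 7 demethylases under other symbols 2 rose, Jmjd1c, which belongs to the KDM3 family, by 0.34 ± 0.05 (218 ± 6.8 CPM in shear and 172 ± 9.5 CPM in static libraries, SD, n = 3 each) and Jmjd6 by 0.27 on the log2 scale. Among the 9 acetyltransferases under other symbols Gtf3c4 alone was called, at 0.27. Of 12 COMPASS and MLL partners 2 rose and 1 fell, namely Wdr5 (0.32), Rbbp5 (0.17) and Men1 (-0.47). Rbbp5 lost its call without static replicate 1 (edgeR adjusted p = 0.074) or 2 (0.14) or shear replicate 2 (0.17) or 3 (0.11), with library totals alone (0.13) and with upper-quartile factors (0.078), and Men1 without static replicate 2 (0.056) or 3 (0.058) or shear replicate 3 (0.095). The HDAC corepressor list had 2 of 24 higher and 4 lower, with Sap18 (-0.33), Tbl1x (-0.26), Gps2 (-0.22) and Rcor1 (0.22) the largest among those called. The acetyltransferase partners had 4 of 25 higher, Msl2 (0.26), Kansl3 (0.25), Ing2 (0.25) and Msl1 (0.18), and 1 lower; the edgeR adjusted p of Msl1 was 0.058 without shear replicate 2 and 0.071 with library totals alone. Of 10 deubiquitinase and ASXL genes Usp22 (0.29) and Usp16 (0.27), which remove ubiquitin from histones, rose. Called in either direction were 28.6% of the demethylase list, 11.1% of the acetyltransferases and 25% of the COMPASS partners. The shares were 25% in the HDAC corepressor list, 20% in the acetyltransferase partners and 20% in the deubiquitinase list. Among all tested genes 18.5% were called.

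**Figure D4:**
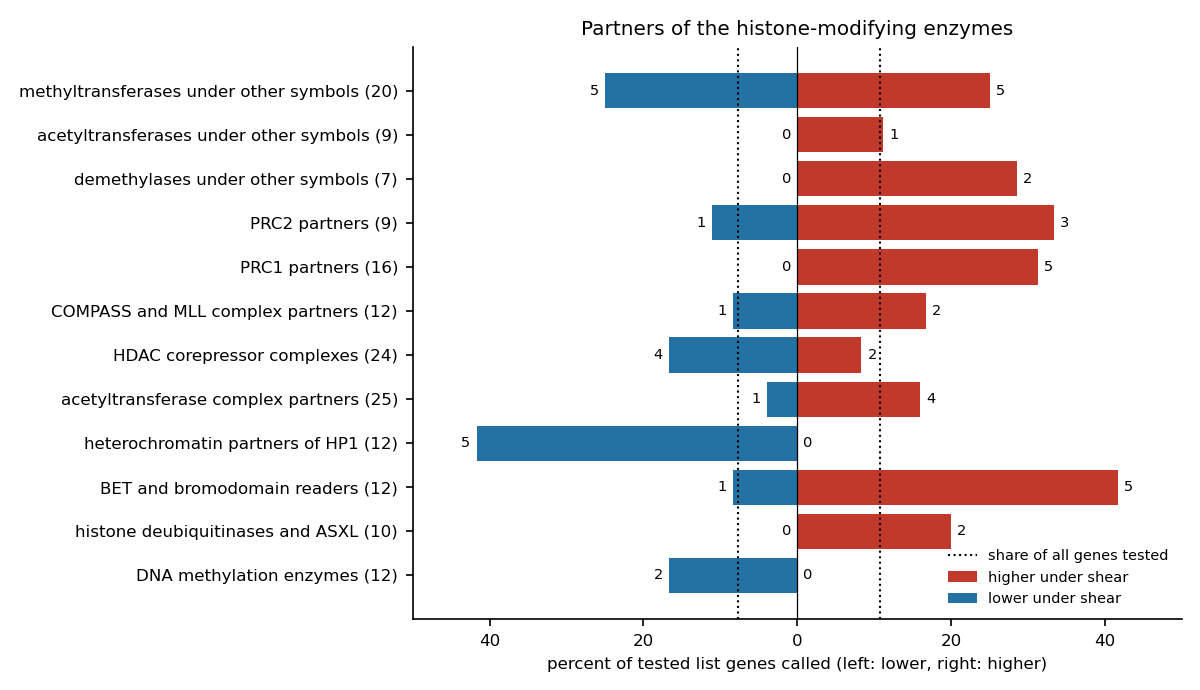
Share of the tested genes of each of the 12 partner lists that were called higher (right) and lower (left) under shear. The lists were written with earlier results of these data known. PRC1 partners reach 31.2% higher and 0% lower, and HP1 partners 0% higher and 41.7% lower; the dotted lines mark the 10.8% and 7.71% of all tested genes.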

How the data were processed

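The authors deposited 1 table of whole-number counts per gene and library, with exon positions and summed exon length, per the file headers. Libraries were stranded mRNA libraries from total RNA, per the labels' protocols. Tools listed in the submitters' processing notes are edgeR 3.12.1, Subread 1.5.1, featureCounts and Trimmomatic 0.36. Aligner, genome build, strand setting and treatment of reads with several matches: not given in the sources used here. Even values made up 71.4% to 72.2% of the counts of 1 to 20 and 51.1% to 52.3% of those over 200, and a fit with halved counts was among the alternatives.

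Counts of all genes were tested with edgeR 4.0.16 (R 4.3.3): filterByExpr with a minimum count of 10, TMM factors, the two-sided quasi-likelihood test, Benjamini-Hochberg adjustment over 13945 genes and a threshold of 0.05. Each SE is the size of the log2 ratio divided by the square root of F. CPM values use TMM-scaled totals. Alternatives used DESeq2 1.42.0 size factors and test, limma 3.58.1 voom, other scalings, no filter, a replicate block and leaving out each library. No pair of replicates agreed within sampling noise (chi-square over degrees of freedom 5.57 to 8.18). These ratios use the counts as deposited, with their excess of even values, and were not computed on halved counts.

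The members and lists were chosen with earlier results of these data known. Called members are named, up to 14 of them library by library, with the highest and lowest per length of each class, up to 4 changed genes of each partner list whose mean log2 CPM reaches 1, and 12 genes whatever their result. Atrx, Eed, Suz12, Kdm5a, Kdm5c, Kdm5d, Yaf2 and the uncalled members named beside a changed paralogue were added after their values were seen. So were Mettl23 and Mecom, whose mean log2 CPM is below 1 in the case of Mecom. RefSeq start regions come from assembly GRCr8. No positions were converted between builds.
A gene that the rule selects is not reported here, though it counts in the totals.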

Additional observations from a re-analysis of the deposited data

How the results depend on the processing

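Of the 19 called members, 10 kept their call under all 14 alternatives, among them Kdm6b, Kdm3a, Kdm5b, Kdm1a, Kmt5b, Kmt2e, Cbx3, Setd5 and Hdac9. Leaving out 1 library gave 7 to 9 members higher and 6 to 8 lower, 24 to 33 partner genes higher and 13 to 19 lower, and 1193 to 1469 of all genes higher and 769 to 948 lower, with fewer libraries in each fit. With library totals alone, 15 members, 32 partner genes and 1730 of all genes were lower, against 9, 20 and 1075 with TMM factors; that scaling moves the median log2 fold change of all genes to -0.06. The median level of the members in static libraries was 7.26 CPM per kb, against 7.38 with library totals alone and 7.32 with upper-quartile factors.

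Replicate numbers did not pair the libraries: deviations of same-numbered libraries correlated at -0.019, -0.0187 and -0.000505, and no shear library correlated best with the static library of its own number. With a replicate block, 8 members were higher and 9 lower, without the calls of Kdm2a (edgeR adjusted p = 0.058) and Setd1b (0.059). Partner genes were then 26 higher and 16 lower, without the calls of Pcgf6 (0.056), Rbbp5 (0.053), Rbbp7 (0.070) and Atrx (0.059), and all genes 1372 and 964.

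Of the 75 tested members 29 had a log2 ratio above 0, against 30 with DESeq2 size factors, 19 with library totals alone and 24 with upper-quartile factors. The named log2 ratios that changed sign were those of uncalled members. With library totals alone Kdm5a was -0.015, Setd3 -0.036, Kat6a -0.018 and Sirt3 -0.0049, with upper-quartile factors Setd3 was -0.013, and with limma-voom the row listed as Kdm6a was 0.015. With 1 library left out, they spanned -0.31 to 0.12 for Kdm6a, -0.11 to 0.12 for Ezh1, -0.055 to 0.024 for Hdac4, -0.18 to 0.057 for Sirt6, -0.051 to 0.074 for Setd3, -0.59 to 0.19 for Cbx7, -0.032 to 0.087 for Kat6a, -0.097 to 0.24 for Sirt3 and -0.013 to 0.10 for Hdac1. The cause was not tested. Low counts limit the precision of Hdac9, Cbx2, Cbx7 and Cbx8.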
